A study of Homo sapiens with 10 samples.

Results

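Long noncoding RNAs (lncRNAs) are transcripts that are not translated into protein, and several of them belong to the p53 response or to structures of the nucleus. Expression of 6 of them, PURPL, TP53TG1, MEG3, LINC-PINT, NEAT1 and MALAT1, was examined in human kidney tubule cells 7 days after gamma irradiation. Each corresponded to 1 of the 61587 genes of the count table by its Ensembl identifier, and all 6 were among the 19006 genes that held at least 200 counts over the samples and were tested. PURPL was chosen by its log2 fold change between these same samples, as the largest rise, so its values are given as a description without a test. The other 5 were added for their known biology, with earlier results of these data already known.

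The cells were RPTEC/TERT1, a line of proximal tubule epithelial cells immortalised with telomerase. The 5 irradiated samples had received 10 Gy from a caesium-137 source and the 5 control samples had been mock-irradiated, and RNA was taken from both on day 7. All samples share the telomerase transgene and come from a single immortalised line. Samples with the same replicate number formed 5 pairs, and nothing in the labels states that the replicates were separate cultures. The p-values therefore measure only the spread seen in these samples. In the main test that is the spread left once the replicate pair is in the model. Replicates 4 and 5 were more alike than any other 2 replicates in each group. The chi-square per gene between their counts was 15.5 in control and 8.94 in irradiated samples. For the next most alike replicates it was 57.2 and 42.1. The 5 pairs may therefore hold less independent spread than their number implies.

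p53 is a transcription factor that is stabilised by DNA damage and switches on genes that halt the cell cycle, repair DNA or trigger cell death. Several lncRNAs are tied to p53. PURPL restrains p53 levels, TP53TG1 is induced by DNA damage, and LINC-PINT is a p53 target that has been tied to Polycomb repression. MEG3, an imprinted RNA, can raise p53 activity. NEAT1 and MALAT1 act in the nucleus. NEAT1 is the scaffold around which paraspeckles assemble and is itself a reported p53 target, and MALAT1 is concentrated in nuclear speckles, where splicing factors are stored.

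The libraries held 66269311 to 131555873 counts each. Levels are given as CPM, the count of a gene per 1000000 counts of its library, after scaling by trimmed mean of M values (TMM). CDKN1A, the cell cycle inhibitor induced by p53, stood at 66.7 to 207.6 CPM in control and 584 to 768 CPM in irradiated libraries, with the highest control value in replicate 3. Control libraries 1 and 3 stood apart from the other controls. They held 76.7 and 60.4 CPM of the proliferation marker MKI67, against 217 to 234 CPM in the remaining 3 controls and 15.3 to 29.6 CPM in the irradiated libraries. Results are therefore also given without pairs 1 and 3 where that changes them. Of 19 markers of kidney tubule epithelium, PAX8, KRT8 and EPCAM were well expressed, whereas LRP2, HNF4A and SLC34A1, which mark the mature proximal tubule, each fell under 200 counts over the 10 libraries. Of the 16 tested markers 4 rose (25.0%), led by the cadherins CDH6 and CDH2, and 4 fell (25.0%), led by CDH16 and AQP1, beside 23.9% and 22.7% of all tested genes. Of 7 markers of other nephron segments 3 were tested and 1, the loop of Henle transporter SLC12A1, fell, while UMOD had 0 counts.

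PURPL went from 0.235 CPM in control to 8.12 CPM in irradiated cells. The gene lies on the plus strand of GRCh38 chr5:27217714-27497871 (ENSG00000250337). The window from 250 bases before to 50 bases after its RefSeq start (GRCh38.p14, chr5:27472042-27472341, plus strand) is shown because it holds adjacent copies of the 10-base element that p53 binds. That element consists of 3 purines, C, 2 bases that are A or T, G and 3 pyrimidines, and it reads the same on both strands. LNCTAM34A, a p53-linked lncRNA beside the miR-34a locus (GRCh38.p14, chr1:9181954-9182253, plus strand), has the same arrangement. Capitals mark the elements.
PURPL: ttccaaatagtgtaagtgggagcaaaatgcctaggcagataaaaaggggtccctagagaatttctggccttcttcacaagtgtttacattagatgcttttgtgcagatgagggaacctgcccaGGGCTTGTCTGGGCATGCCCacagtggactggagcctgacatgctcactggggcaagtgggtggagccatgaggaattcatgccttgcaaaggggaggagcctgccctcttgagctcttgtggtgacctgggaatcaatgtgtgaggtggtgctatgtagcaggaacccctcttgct
LNCTAM34A: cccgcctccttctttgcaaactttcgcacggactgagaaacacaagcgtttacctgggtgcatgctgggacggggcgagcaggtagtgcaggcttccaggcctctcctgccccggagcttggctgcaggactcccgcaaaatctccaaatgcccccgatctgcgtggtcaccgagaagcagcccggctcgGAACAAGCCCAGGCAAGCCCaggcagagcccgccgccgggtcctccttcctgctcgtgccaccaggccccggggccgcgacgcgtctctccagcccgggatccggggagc

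In PURPL the first element began 127 bases before the start and in LNCTAM34A 60 bases before it, with a gap of 0 bases between the elements in both. A pair of elements with at most 13 bases between them occurred in 10 of the 35116 RefSeq promoter windows (0.0285%), and at least 1 element in 2329 (6.63%). The windows of TP53TG1, MEG3, LINC-PINT and MALAT1 held no element, and neither did those of CDKN1A and MDM2, so no match says only that these letters are not in these windows. Of the 10 genes with a pair, 5 besides PURPL were tested. LNCTAM34A, DDB2, MCC and PTCHD4 rose, and DYNC2H1 fell, beside 23.9% of all tested genes called higher and 22.7% lower. Whether the elements bear on these changes was not tested. The DNA damage recognition gene DDB2 went from 11.9 ± 1.40 to 40.8 ± 6.13 CPM (SD, n = 5), a log2 fold change of 1.77 (SE 0.05, edgeR quasi-likelihood adjusted p = 4.53e-06). PTCHD4 went from 5.61 ± 1.19 to 45.0 ± 13.3 CPM (SD, n = 5), a log2 fold change of 2.98 (SE 0.22, edgeR adjusted p = 5.5e-05). DYNC2H1, which encodes a motor protein of cilia, went from 45.6 ± 3.18 to 30.2 ± 2.78 CPM (SD, n = 5), a log2 fold change of -0.60 (SE 0.04, edgeR adjusted p = 6.05e-05).

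PURPL stood at 0.135, 0.243, 0.319, 0.186 and 0.294 CPM in control libraries 1 to 5, from 11, 34, 32, 20 and 35 counts. In irradiated libraries 1 to 5 it stood at 7.05, 9.45, 4.43, 9.36 and 10.3 CPM, from 699, 633, 410, 860 and 912 counts. The groups did not overlap, and the lowest irradiated value, in replicate 3, was paired with the highest control value. The means were 0.235 ± 0.076 and 8.12 ± 2.39 CPM (SD, n = 5), and the fitted log2 fold change was 5.07 (SE 0.26, 95% confidence interval 4.45 to 5.68). That interval takes no account of the choice of PURPL by this value and is no test. The rise within pairs ranged from 13.9-fold in pair 3 to 52.4-fold in pair 1. PURPL held 132 counts over all controls, so it reached the minimum of 200 counts only through the irradiated libraries. More cells with a transcript and more transcript per cell cannot be told apart in bulk RNA.

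Ordered by log2 fold change, PURPL took rank 4 of the 19006 genes and led the 3574 tested lncRNAs. SMIM31, OR2I1P and ASB2 were above it at irradiated means under 1 CPM (0.682, 0.552 and 0.956 CPM), and CXCL5 was just below it with a log2 fold change of 4.92. The nearest protein-coding genes belong to the cadherin family of adhesion proteins. CDH9, 96.6 kb away, had 3 counts in all, and CDH6, 3696 kb away, rose from 37.7 ± 9.28 to 246 ± 59.7 CPM (SD, n = 5). CDH6 had a log2 fold change of 2.7 (SE 0.14, edgeR adjusted p = 2.13e-05) and was higher in 5 of 5 pairs.

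**Figure D1:**
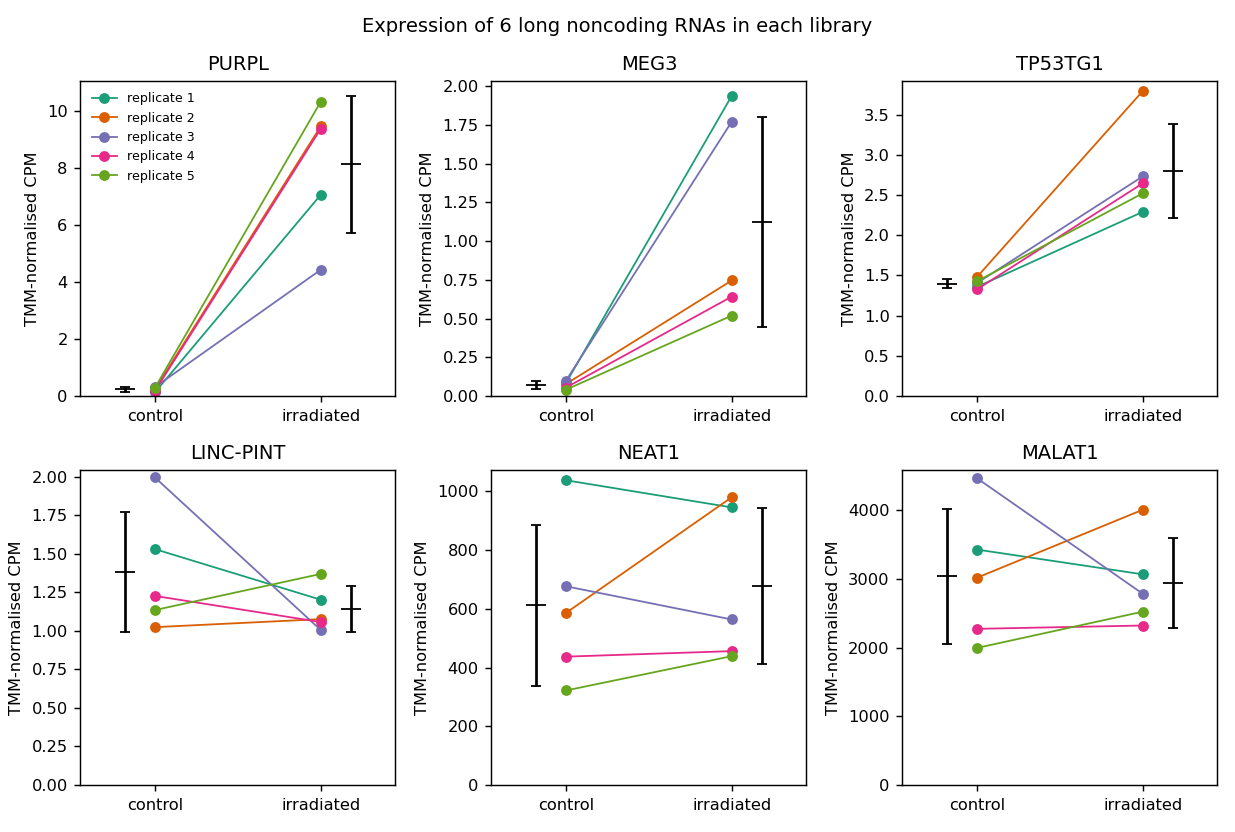
CPM (TMM-normalised, linear axes starting at 0) of the 6 lncRNAs in control and irradiated libraries, with lines joining the 5 pairs and black bars giving mean ± SD (n = 5). All irradiated points lie above all control points for PURPL, MEG3 and TP53TG1, and the groups overlap for LINC-PINT, NEAT1 and MALAT1.

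Among the 5 members other than PURPL, TP53TG1 and MEG3 passed the test as higher in irradiated cells, LINC-PINT, NEAT1 and MALAT1 did not pass it, and 0 passed as lower (edgeR quasi-likelihood test with the replicate pair in the model, adjusted p under 0.05 over all 19006 genes). 0 of the 5 were lower at an unadjusted p under 0.05 as well, and 0 were called lower by DESeq2 or limma-voom. Over all tested genes 23.9% were called higher and 22.7% lower, and over the tested lncRNAs 17.2% and 17.0%. Every irradiated library was above every control library for TP53TG1 and MEG3, which was so for 14.6% of tested genes, and 12.0% of tested genes lay wholly below. MEG3 reached the count minimum only through the irradiated libraries, so a count over the members carries no weight of its own.

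TP53TG1 rose 1.97-fold, with little spread among controls. It lies on the minus strand of GRCh38 chr7:87322943-87345560 (ENSG00000182165), back to back with CROT, which encodes a peroxisomal enzyme that transfers fatty acids to carnitine. The annotated ends of these genes are 104 bases apart, so the RefSeq promoter window of TP53TG1 (GRCh38.p14, chr7:87345443-87345742, minus strand) also contains the start of CROT. It is shown in lower case throughout because no element was found in it.
TP53TG1: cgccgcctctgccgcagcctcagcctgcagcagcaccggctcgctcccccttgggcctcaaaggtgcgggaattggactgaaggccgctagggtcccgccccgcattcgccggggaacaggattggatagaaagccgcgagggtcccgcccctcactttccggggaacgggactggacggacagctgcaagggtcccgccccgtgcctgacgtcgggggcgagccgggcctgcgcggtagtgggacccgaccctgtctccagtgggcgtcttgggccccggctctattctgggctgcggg

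TP53TG1 stood at 1.36, 1.48, 1.41, 1.33 and 1.43 CPM in control libraries 1 to 5. It stood at 2.29, 3.79, 2.73, 2.65 and 2.52 CPM in irradiated libraries 1 to 5. The groups were clearly separated, and irradiated library 2 was the highest. The means were 1.40 ± 0.060 and 2.8 ± 0.58 CPM (SD, n = 5), with a log2 fold change of 0.98 (SE 0.11, 95% confidence interval 0.72 to 1.24, edgeR adjusted p = 0.00037). The fold within pairs ranged from 1.69 in pair 1 to 2.56 in pair 2.

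CROT rose by nearly the same amount. It went from 15.3 ± 0.886 to 29.3 ± 1.40 CPM (SD, n = 5), a log2 fold change of 0.94 (SE 0.06), and was higher in 5 of 5 pairs. TMEM243, the nearest protein-coding gene on the other side of TP53TG1 at 102.4 kb, had 23.2 ± 2.15 and 23.6 ± 1.14 CPM (SD, n = 5) and a log2 fold change of 0.03 (edgeR adjusted p = 0.653).

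MEG3, which is transcribed from the maternal copy of the imprinted DLK1-DIO3 region, rose from a few counts per library. It lies on the plus strand of GRCh38 chr14:100779410-100861031 (ENSG00000214548). Control libraries 1 to 5 held 7, 11, 10, 6 and 5 counts, or 0.0856, 0.0787, 0.0997, 0.0557 and 0.042 CPM. Irradiated libraries 1 to 5 held 192, 50, 164, 59 and 46 counts, or 1.94, 0.747, 1.77, 0.642 and 0.52 CPM. The groups did not overlap, and irradiated libraries 1 and 3 were more than 2 times as high as the other 3. The means were 0.0723 ± 0.0232 and 1.12 ± 0.674 CPM (SD, n = 5), and the log2 fold change was 3.83 (SE 0.21, 95% confidence interval 3.35 to 4.31, edgeR adjusted p = 2.23e-05). MEG3 was higher in 5 of 5 pairs, by 9.49-fold to 22.6-fold, and took rank 36 of all tested genes by log2 fold change. With the minimum lowered to 1 count, so that the count minimum did not choose it, the log2 fold change was 3.79 (edgeR adjusted p = 3.27e-12). Without pairs 1 and 3 MEG3 no longer reached 200 counts and was not tested.

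The neighbours of MEG3 were barely detected in any library. DLK1 had 2 counts over all libraries, RTL1 3, MEG9 5, MEG8 21 and DIO3 43. None of the 5 reached the minimum for the test. Markers of cell types that could be present beside the tubule cells moved with irradiation to some degree. The 8 fibroblast and pericyte markers summed to 15.9 to 23.5 CPM in controls and 28.6 to 40.2 CPM in irradiated libraries. Of these, the 2 that were tested, COL1A1 and DCN, rose (100%), beside 23.9% of all tested genes called higher. COL3A1 and LUM had no count in any control library and mean irradiated levels of 0.0096 and 0.0043 CPM. Among irradiated libraries DCN, a matrix proteoglycan gene, was highest in library 2 at 4.45 CPM and lowest in library 1 at 0.454 CPM. The 6 endothelial markers summed to 1.32 to 2.49 against 4.18 to 6.09 CPM, and 2 of the 3 tested rose (66.7%), CDH5 and PECAM1. KDR had no count in irradiated libraries. The 6 leukocyte markers summed to 0.286 to 0.685 against 1.21 to 2.09 CPM, and of the 2 tested ITGAM rose and PTPRC, the pan-leukocyte marker, did not pass (0.295 and 0.353 CPM). Their part in the rises of MEG3 and PURPL was not tested.

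The order of irradiated libraries differed between PURPL and MEG3. Irradiated libraries 1 and 3 were the lowest for PURPL and the highest for MEG3. Over the 10 libraries, deviations from the group means had r = -0.57 between them, a description over points that share library preparation and depth.

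LINC-PINT did not pass the test. It lies on the minus strand of GRCh38 chr7:130791264-131110176 (ENSG00000231721) and its start overlaps the start of MKLN1 on the other strand. LINC-PINT stood at 1.53, 1.02, 1.99, 1.23 and 1.13 CPM in control libraries 1 to 5. It stood at 1.20, 1.08, 1.0, 1.06 and 1.37 CPM in irradiated libraries 1 to 5. The groups overlapped, and the highest values were those of control libraries 3 and 1. The means were 1.38 ± 0.391 and 1.14 ± 0.146 CPM (SD, n = 5), the log2 fold change was -0.25 (SE 0.18, 95% confidence interval -0.67 to 0.18, edgeR adjusted p = 0.299), and 2 of 5 pairs were higher. Without pairs 1 and 3 the log2 fold change was 0.03 (edgeR adjusted p = 0.889). MKLN1 itself had 61.8 ± 3.62 and 62.8 ± 5.75 CPM (SD, n = 5; edgeR adjusted p = 0.806).

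Some genes of the proteins that these RNAs are known to bind or act on were also read. EZH2, the catalytic subunit of Polycomb complex PRC2, fell by 1.10 on the log2 scale, from 26.7 ± 5.91 to 12.3 ± 1.02 CPM (SD, n = 5). The other core subunits EED and SUZ12 fell by 0.42 and 0.34, and PAF1, an elongation factor, fell by 0.16. MYBBP1A, a nucleolar protein that PURPL has been shown to bind, had 51.5 ± 8.30 and 51.7 ± 3.46 CPM (SD, n = 5), and MDM4 and ELAVL1 did not pass either.

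NEAT1 and MALAT1 are by far the most abundant of the 6. They lie in tandem on the plus strand of chromosome 11, NEAT1 at GRCh38 chr11:65422774-65445540 (ENSG00000245532) and MALAT1 at chr11:65497640-65508073 (ENSG00000251562). The 3′ end of the long NEAT1 transcript and that of mature MALAT1 are cut by RNase P and held as a triple helix in place of a poly-A tail. They are shown because the libraries were made from RNA selected for poly-A, and these ends carry only encoded runs of A. The 70 bases are from GENCODE release 44, at chr11:65445471-65445540 for NEAT1 and chr11:65506047-65506116 for MALAT1, both on the plus strand. Capitals mark the runs of 16 and 11 bases that the RNAs share.
NEAT1: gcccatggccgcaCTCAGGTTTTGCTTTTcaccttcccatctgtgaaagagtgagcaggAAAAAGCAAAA
MALAT1: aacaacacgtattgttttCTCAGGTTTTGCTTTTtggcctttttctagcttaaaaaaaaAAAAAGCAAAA

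The longest run of A was 13 bases in the MALAT1 end and 5 in the NEAT1 end. NEAT1 has 9 annotated transcripts of 512 to 22743 bases, and the short polyadenylated and the long form share 1 gene count here.

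NEAT1 stood at 1038, 586, 677, 437 and 322 CPM in control libraries 1 to 5. It stood at 945, 980.3, 564, 456 and 439 CPM in irradiated libraries 1 to 5. The groups overlapped almost completely, with replicate 1 high and replicates 4 and 5 low in both. The means were 612 ± 274 and 677 ± 266 CPM (SD, n = 5), the log2 fold change was 0.17 (SE 0.14, 95% confidence interval -0.16 to 0.50, edgeR adjusted p = 0.361), and 3 of 5 pairs were higher. The pairs that were lower were 1 and 3, whose control libraries held the least MKI67. Without pairs 1 and 3 the log2 fold change of NEAT1 was 0.40 (edgeR adjusted p = 0.0312), a fit that was chosen after seeing the data and that leaves out the pairs in which NEAT1 was lower. Without replicate 2, the pair with the largest rise, it was 0.03 (edgeR adjusted p = 0.824).

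MALAT1 stood at 3429, 3018, 4468, 2274 and 1995 CPM in control libraries 1 to 5. It stood at 3068, 4009, 2784, 2322 and 2524 CPM in irradiated libraries 1 to 5. Control library 3 was the highest of all 10, and the groups overlapped. The means were 3037 ± 984 and 2942 ± 659 CPM (SD, n = 5), with a log2 fold change of -0.01 (SE 0.15, 95% confidence interval -0.37 to 0.35, edgeR adjusted p = 0.959). Pairs 2, 4 and 5 were higher in the irradiated library and pairs 1 and 3 were lower. Without pairs 1 and 3 the log2 fold change turned to 0.24 (edgeR adjusted p = 0.0586).

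NEAT1, MALAT1, LINC-PINT and MEG3 were each above their control median in control libraries 1 and 3, the libraries low in MKI67. PURPL was the lowest of the controls in library 1 and the highest in library 3. The part of proliferation in these levels was not tested.

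**Figure D2:**
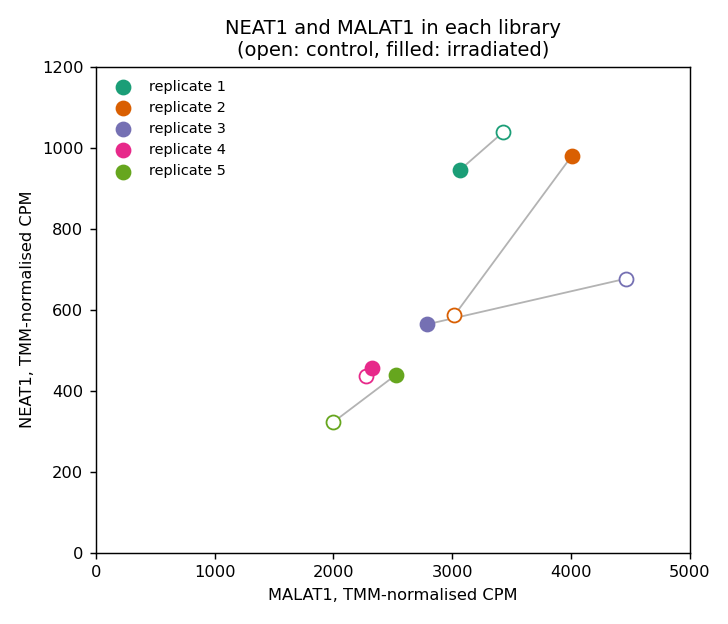
NEAT1 against MALAT1 in TMM-normalised CPM, 1 point for each library (open circles control, filled circles irradiated), with a line joining each pair. Pairs 1 and 3 run down and to the left from control to irradiated, pairs 2, 4 and 5 up and to the right, and the MALAT1 values run from 1995 to 4468 CPM.

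NEAT1 and MALAT1 rose and fell together across libraries, with r = 0.82 between their deviations from the group means over 10 libraries that share preparation and depth. Per 100 counts of MALAT1, control libraries 1 to 5 held 30.3, 19.4, 15.2, 19.2 and 16.1 counts of NEAT1. Irradiated libraries 1 to 5 held 30.8, 24.4, 20.2, 19.6 and 17.4. NEAT1 was thus higher relative to MALAT1 in the irradiated library of each pair, by 0.03 to 0.42 on the log2 scale, although the groups overlapped. The mean log2 ratio was -2.36 ± 0.39 in control and -2.18 ± 0.32 in irradiated libraries (SD, n = 5), a difference of 0.18 (two-sided exact permutation test, p = 0.421). Within pairs the exact sign-flip permutation test gave p = 0.0625, the smallest that 5 pairs allow.

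Per kilobase of exon, MALAT1 was the most abundant in control cells, at 291 ± 94.3 CPM per kb (SD, n = 5). NEAT1 followed with 26.9 ± 12.1, TP53TG1 with 0.227 ± 0.00972, LINC-PINT with 0.0506 ± 0.0143, PURPL with 0.00995 ± 0.00322 and MEG3 with 0.00312 ± 0.001 CPM per kb. No neighbours in that order overlapped in range among the control libraries. In irradiated libraries PURPL reached 0.344 ± 0.101 CPM per kb (SD, n = 5), between TP53TG1 at 0.453 ± 0.0942 and the lower MEG3 and LINC-PINT at 0.0484 ± 0.029 and 0.0418 ± 0.00536. The ranges of PURPL and TP53TG1 overlapped, as did those of MEG3 and LINC-PINT. Annotated exon lengths count every isoform, so levels of genes with long unused exons come out low.

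**Figure D3:**
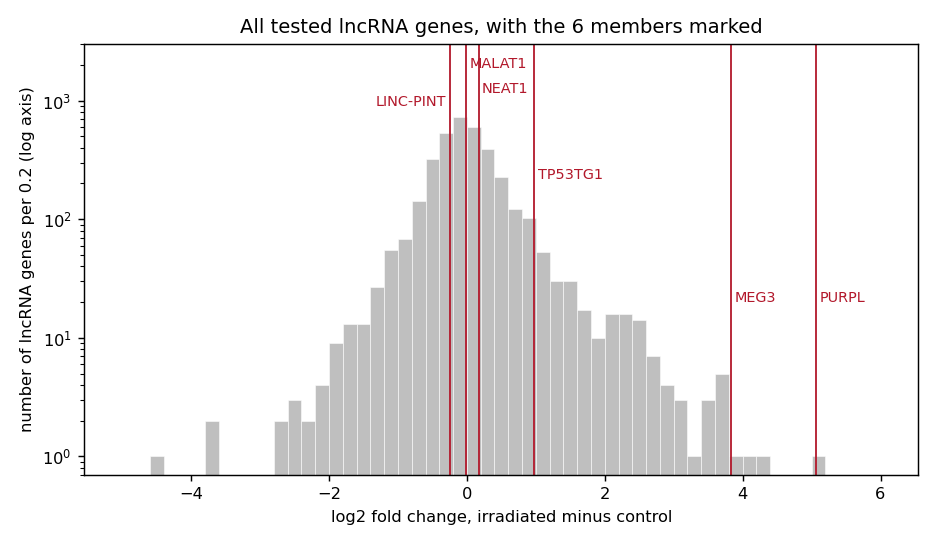
Number of the 3574 tested lncRNA genes (log axis) by log2 fold change in bins of 0.2, with red lines at the 6 members. PURPL (5.07) and MEG3 (3.83) lie in the right tail, TP53TG1 (0.98) on the right shoulder, and NEAT1, MALAT1 and LINC-PINT near 0.

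Other lncRNAs tied to p53 moved in both directions. Of 15 listed, 14 were found, 9 were tested, 4 were called higher (44.4%) and 3 lower (33.3%), beside 17.2% and 17.0% of all tested lncRNAs. The median log2 fold change was -0.03 beside -0.03 over all tested lncRNAs. MIR34AHG, the host gene of the p53-induced microRNA miR-34a, rose from 8.25 ± 1.62 to 22.4 ± 2.98 CPM (SD, n = 5), a log2 fold change of 1.46 (SE 0.14, edgeR adjusted p = 0.000153). LNCTAM34A, on the opposite strand of the same locus, rose from 0.756 ± 0.131 to 1.90 ± 0.339 CPM (SD, n = 5), a log2 fold change of 1.33 (SE 0.18, edgeR adjusted p = 0.00088), and 20.1% of its exonic bases lie opposite exons of another gene. PVT1, the neighbour of MYC, rose by 0.81 on the log2 scale and NORAD, a cytoplasmic RNA that binds Pumilio proteins, by 0.25.

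CDKN2B-AS1, which lies antisense to the CDK inhibitor genes of the INK4 locus, fell by 1.13 on the log2 scale, from 1.31 ± 0.218 to 0.596 ± 0.113 CPM (SD, n = 5; edgeR adjusted p = 0.000899). DANCR fell by 0.34 and MIR31HG fell by 0.27, and GAS5 and MIR22HG did not pass. MIR31HG (edgeR adjusted p = 0.0381) lost its call without replicate 1, 3, 4 or 5 and without pairs 1 and 3, NORAD lost its call without replicate 1, 4 or 5 and with scaling by library size alone, and GAS5 passed as lower without replicate 2 and with that scaling. DINOL, which starts within the annotated span of CDKN1A on the opposite strand, held 80 counts in all and was under the minimum. It had 2, 2, 4, 4 and 1 counts in control libraries 1 to 5 and 8, 14, 10, 13 and 22 in irradiated libraries 1 to 5. Whether reads from CDKN1A transcripts are among these counts was not tested. PINCR, PANDAR, LINC-ROR and H19 held 20 counts or fewer each.

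Most p53 target mRNAs rose. Of 30 listed, 29 were tested, 26 were called higher (89.7%) and 0 lower, beside 23.9% and 22.7% of all tested genes. The median log2 fold change was 1.22 beside -0.01 over all tested genes. The 3 that did not pass were GDF15, CCNG1 and POLH, and the lowest log2 fold change in the list, that of POLH, was 0.09, so 0 were lower at any p. The smallest rises that passed were those of SESN2 (0.37) and PPM1D (0.20). The list was chosen with results of these samples known and is no independent evidence of its direction. CDKN1A had a log2 fold change of 2.92 (SE 0.24), EDA2R, a death receptor family member, of 2.38 (SE 0.13), and MDM2, the ubiquitin ligase that degrades p53, of 1.85 (SE 0.06). Across the 10 libraries and among 14350 genes, the levels most like that of PURPL were those of EDA2R, ACER2 and RRM2B, with Pearson r of 0.996, 0.995 and 0.994. These r values are descriptions that contain the difference between the groups.

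The most similar levels to the other members differed. TP53TG1 was most like SHH, HES2 and STMN3 (r = 0.972, 0.972 and 0.971), and MEG3 was most like LTO1, MKNK2 and FBXL2 (0.993, 0.988 and 0.986). NEAT1 was most like TBC1D3L, CCDC18-AS1 and LENG8 (0.984, 0.98 and 0.97), MALAT1 like SLC9A3-AS1, ZFYVE26 and TMEM38A (0.958, 0.947 and 0.943), and LINC-PINT like WNT2B, TSC22D2 and CPEB2 (0.936, 0.93 and 0.929).

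**Figure D4:**
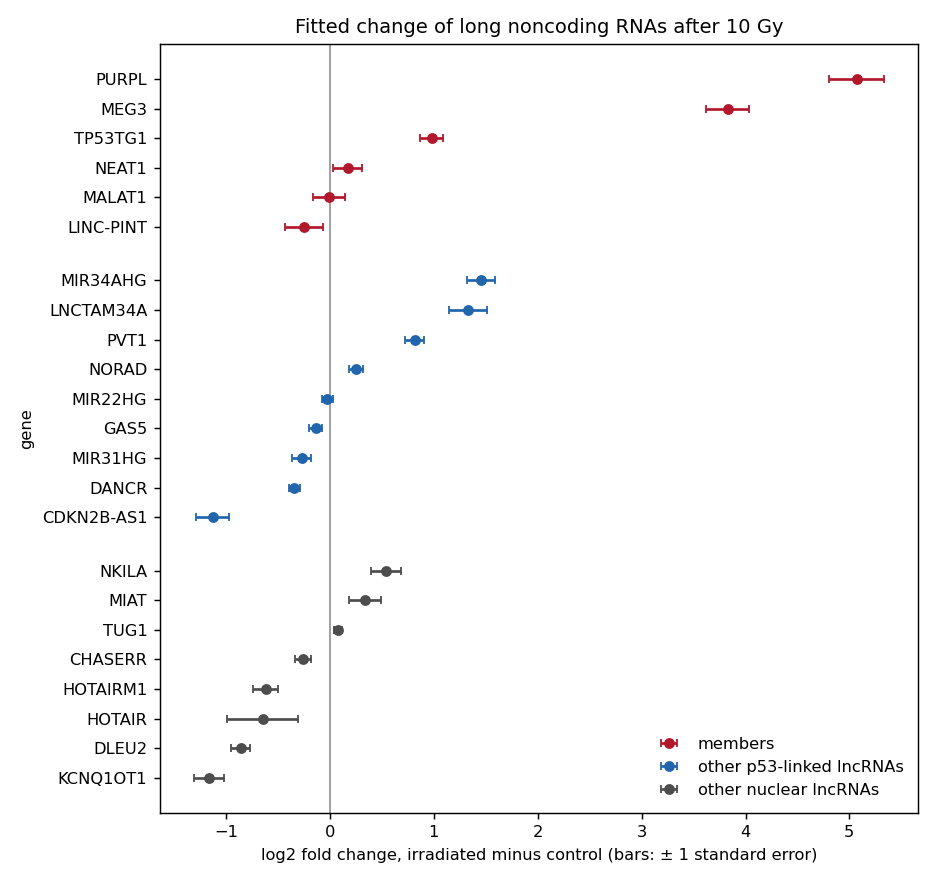
Fitted log2 fold change (irradiated minus control) of the 6 members and of the tested genes among other p53-linked and other nuclear lncRNAs; bars give ± 1 standard error. PURPL at 5.07 and MEG3 at 3.83 lie beyond all others, which run from -1.16 for KCNQ1OT1 to 1.46 for MIR34AHG.

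Other nuclear lncRNAs were also read. Of 17 listed, 14 were found, 8 were tested, 1 was called higher (12.5%) and 4 lower (50%), beside 17.2% and 17.0% of all tested lncRNAs, with a median log2 fold change of -0.44. KCNQ1OT1, the imprinted silencing RNA of the KCNQ1 domain, fell by 1.16 on the log2 scale, from 80.1 ± 21.9 to 36.8 ± 13.1 CPM (SD, n = 5; edgeR adjusted p = 0.000474). DLEU2 fell by 0.86, HOTAIRM1 by 0.62 and CHASERR by 0.26. NKILA, an RNA that binds NF-κB complexes, rose by 0.54 on the log2 scale, a call that was lost without replicate 1 (0.55, edgeR adjusted p = 0.0533). CHASERR lost its call without replicate 1, 3, 4 or 5 and without pairs 1 and 3. HOTAIR, MIAT and TUG1 did not pass, although HOTAIR passed as lower without replicate 1 (-1.04, edgeR adjusted p = 0.0254).

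The protein partners of NEAT1 and MALAT1 were measured through their mRNAs. Of 20 genes for paraspeckle proteins, 0 were called higher and 11 lower (55.0%, beside 22.7% of all tested genes), with a median log2 fold change of -0.16. 0 were higher at an unadjusted p under 0.05 in edgeR, and 0 were called higher by DESeq2 or limma-voom. The changes were small: HNRNPK fell by 0.14 and CPSF6 by 0.15, AHDC1 fell by 0.56 and NUDT21, a cleavage factor, by 0.36, whereas the core proteins NONO and SFPQ fell by 0.16 and 0.18. PSPC1, another core protein, had a log2 fold change of 0.03 (edgeR adjusted p = 0.744). Of 24 genes for nuclear speckle proteins, 0 were called higher and 8 lower, with a median of -0.14. That is 33.3% of the list, beside 22.7% of all tested genes called lower. Among them were PNISR, which fell by 0.40, the splicing factor SRSF4, which fell by 0.38, DYRK1A, which fell by 0.15, and SON, which fell by 0.14. Here too 0 were higher at an unadjusted p under 0.05 in edgeR or called higher by DESeq2 or limma-voom. These counts moved with the scaling and with the libraries included: scaling by library size alone gave 17 lower genes in each list, the fit without the replicate pair gave 6 and 4, and leaving out replicate 5 gave 7 and 3. Of 5 tested genes for factors that process or bind the triple-helix ends, 1 was called higher and 0 lower. Over all tested genes 23.9% were called higher and 22.7% lower. The gene called higher was ELAC2, the tRNA 3′ nuclease, which rose by 0.25 on the log2 scale. METTL16, RPP30, RPP38 and POP1 did not pass. Without pairs 1 and 3 ELAC2 lost its call, at 0.13 (edgeR adjusted p = 0.0515), and RPP30 and POP1 passed as lower, at -0.25 and -0.26.

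On chromosome 11, FRMD8, the nearest protein-coding gene before NEAT1 at 9.25 kb, rose from 37.2 ± 4.03 to 48.7 ± 2.43 CPM (SD, n = 5), a log2 fold change of 0.39 (SE 0.08, edgeR adjusted p = 0.0058), and was higher in 5 of 5 pairs.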

How the data were processed

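RNA of 10 samples was sequenced after poly-A selection. The authors trimmed reads with Trim Galore, aligned them to hg38 with STAR, and deposited raw gene counts without filtering or normalisation; the annotation release and strand setting are not given in the sources used here. A count of 0 was found for 98.3% of lncRNAs fully covered by antisense exons and for 28.2% of those without any overlap, so reads from overlapping genes appear to be uncounted. Names, coordinates and exon lengths came from GENCODE release 44 (61369 of 61587 identifiers matched).

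Genes reaching 200 counts summed across samples were tested with edgeR 4.0.16 (TMM, quasi-likelihood F test, replicate number as a block, Benjamini-Hochberg over 19006 genes, adjusted p under 0.05), following the study's count minimum and its use of replicate number. Same-numbered samples deviated together (r = 0.22 to 0.50 in 5 pairs; -0.34 to 0.30 between other numbers), so the numbers paired the samples. CPM used the same scaling. The fits were also run on simulated counts without an effect of the replicate pair, so that run cannot show how the pairing behaves here. Alternatives were DESeq2 1.42.0, limma-voom (limma 3.58.1), other scalings and filters, no block, and leaving out each replicate; the fit without pairs 1 and 3 was chosen after seeing the data. Members and gene lists were chosen with earlier results of these data known. Named genes were the members, their protein-coding neighbours, the 2 highest and 2 lowest called genes of each list, partners, and the 3 most similar genes; other list genes (such as MDM2, NONO, SFPQ and PSPC1) and those sharing the promoter motif were chosen after their values were seen. Some genes that this rule names are not reported here. Promoter sequences were RefSeq GRCh38.p14.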

Additional observations from a re-analysis of the deposited data

How the results depend on the processing

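The direction and call of TP53TG1 held under all 14 alternatives (log2 fold change 0.89 to 1.05, adjusted p 1.07e-09 to 0.00292) and those of MEG3 under the 13 in which it was tested (3.65 to 4.01, adjusted p 9.31e-25 to 0.000416). PURPL ran from 4.93 to 5.39. With no replicate block, the calls of the 5 other members stayed on their side of the threshold (MEG3 3.96, NEAT1 0.15), while calls over all genes fell from 8857 to 7006. Calls over all genes were 6529 without replicate 4 and 6557 without replicate 5, the 2 most alike replicates. Without replicate 1, 2 or 3 they were 7004, 8403 and 8652. MALAT1 turned positive without replicate 1 (0.03) or 3 (0.16), with a range of -0.11 to 0.16 over single omissions, and was 0.24 without pairs 1 and 3. In that last fit LINC-PINT turned to 0.029 and NEAT1 passed at 0.40 (adjusted p = 0.0312; range over all alternatives 0.0312 to 0.824), and 0 genes for factors of the triple-helix ends were higher and 2 lower. The 2 members other than PURPL called higher in it were TP53TG1 and NEAT1.

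The number of paraspeckle protein genes called lower (11) was 17 with library size only, 6 with no replicate block and 7 to 12 over single omissions. For nuclear speckle proteins (8) it was 13 with upper-quartile factors, 17 with library size only, 13 with a minimum of 1 count, 4 with no replicate block and 3 to 11 over single omissions. For other nuclear lncRNAs called higher (1) it was 2 with a minimum of 1 count and 0 to 1 over single omissions, with 0 without replicate 1. The cause was not tested. Library size only gave 38.0% of all calls as higher, against 51.4% with TMM, and a median log2 fold change of -0.086. The NEAT1 to MALAT1 ratio ran from 0.12 to 0.22 (p 0.0625 to 0.629), the lower p coming from the replicate block. MEG3 rests on 5 to 11 counts per control library, which limits the precision of its fold change.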

Other observations

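A few lncRNAs under the minimum of 200 counts were fitted after lowering the minimum to 1 count. DINOL had a log2 fold change of 2.61 (SE 0.48, edgeR adjusted p = 0.000184), and the part of reads from CDKN1A in it was not tested. RMST, an RNA of neural development, had 0 counts in every control library and a mean of 0.037 CPM in irradiated libraries, and no fold is given for it. PINCR, PANDAR, LINC-ROR, MEG8, MEG9, DIO3 and HOTTIP did not pass in that fit.

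By Pearson r of deviations from the group means over 10 libraries that share preparation and depth, PURPL was most like HLTF (0.973), TP53TG1 most like TRMO (0.965) and MEG3 most like ARHGAP27 (0.963). NEAT1 was most like EPOR (0.995) and MTA1 (0.992), MALAT1 most like SLC9A3 (0.98) and its antisense gene SLC9A3-AS1 (0.979), and LINC-PINT most like TSC22D2 (0.953) and WNT2B (0.947). TSC22D2 and WNT2B were also among the 3 genes most like LINC-PINT by level, as SLC9A3-AS1 was for MALAT1 and TBC1D3L for NEAT1.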
